A study of Oryctolagus cuniculus with 8 samples.

Results

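The solute carriers are a superfamily of membrane proteins that move small molecules across the plasma membrane, vesicles, mitochondria and other organelles. They were taken here as the probes of an Agilent rabbit array whose description names a solute carrier family or a solute carrier organic anion transporter, or whose gene name starts with SLC and a digit, with SLC6A13 left out. The rule gave 454 of the 43603 non-control probes, for 200 of 23383 genes or transcripts. Of these 200, 3 are not transporters (NHERF1, NHERF2 and SLC7A6OS, which carry SLC terms in their array names) and 7 have no gene symbol. Another 130 probes carry an SLC symbol in the RefSeq table but do not meet the rule, and they were not counted as members.

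Forebrain RNA came from New Zealand rabbit pups delivered by Caesarean section at day 29 of a gestation whose term is 32 days, gavage-fed in an incubator and sampled at postnatal day 14. The dexamethasone group (4 samples) received this synthetic glucocorticoid into the muscle at 0.25 mg/kg, 2 times daily, for at most 5 days. The saline group (4 samples) received the vehicle, and no genotype differs between the groups. The series asks what glucocorticoid treatment after birth does to gene expression in the forebrain. Each of 4 arrays carried 2 samples of 1 group, odd-numbered samples in the dye Cy3 and even-numbered samples in Cy5, and each slide and each scan day held 1 group only, so for every comparison given here the treatment and the slide cannot be told apart. Values are normalised log2 intensities per gene, read from 1 probe, and differences are dexamethasone minus saline. In a whole forebrain, fewer cells of a type and less RNA per cell cannot be told apart.

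Solute carriers are coupled to ion gradients, to other solutes or to the membrane potential, and the sodium gradient that many of them spend is set by the sodium pump. In brain they clear and recycle glutamate, GABA and glycine, load synaptic vesicles, carry glucose, lactate and amino acids across the blood-brain barrier and into neurons and astrocytes, and set chloride, bicarbonate and pH. The family 25 members serve the inner mitochondrial membrane, and families 30 and 39 move zinc.

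Several results below rest on single probes, so the 60-base probes behind them are given, as printed on the array, with the oryCun2 positions of the array annotation. For SLC12A1 the 3 probes overlap by 20 or 40 bases, and the capitals mark the 20 bases that all 3 share. The first lies at chr17:24222671-24222730 and the middle one at chr17:24222691-24227774, a span longer than its 60 bases, both on the minus strand.
SLC12A1 probe A_04_P097582: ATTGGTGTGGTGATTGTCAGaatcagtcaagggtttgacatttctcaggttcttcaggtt
SLC12A1 probe A_04_P097583: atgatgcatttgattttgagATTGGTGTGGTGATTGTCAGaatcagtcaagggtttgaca
SLC12A1 probe A_04_P097584: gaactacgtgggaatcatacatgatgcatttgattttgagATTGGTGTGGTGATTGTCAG

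For SLC31A1, the first and last of 5 probes are shown. They start 4 bases apart near chr1:92423-92486 on the minus strand and share the 56 bases in capitals.
SLC31A1 probe A_04_P073671: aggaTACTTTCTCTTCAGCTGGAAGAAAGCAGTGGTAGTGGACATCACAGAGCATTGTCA
SLC31A1 probe A_04_P073667: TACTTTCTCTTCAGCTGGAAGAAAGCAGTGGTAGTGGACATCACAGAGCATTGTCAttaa

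For SLC38A9, the 2 probes gave unlike differences and share no bases, so none are in capitals. They adjoin at chr11:71525799-71525858 (A_04_P098277) and chr11:71525859-71525918 on the minus strand.
SLC38A9 probe A_04_P098278: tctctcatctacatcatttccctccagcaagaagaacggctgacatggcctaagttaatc
SLC38A9 probe A_04_P098277: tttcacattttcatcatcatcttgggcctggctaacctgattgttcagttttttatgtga

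The solute carriers covered the range from strong to undetected signals. Well above background is the scanner software's flag for a spot brighter than its local background. Of the 200 genes, 68 had a probe with this flag in all 8 samples, 48 in 4 to 7, 42 in 1 to 3 and 42 in 0 samples, against 34.1%, 16.5%, 18.1% and 31.2% of all genes on the array. The 14 members of the bile acid, dicarboxylate and sulfate class included 7 without the flag in any sample, among them SLC10A1 and SLC10A2, the bile acid carriers of liver and intestine. Every member of the bicarbonate, fatty acid, and monocarboxylate and thyroid hormone classes had it in at least 1 sample. The share of member probes with the flag was 47.1%, 65.2%, 47.6% and 66.7% in dexamethasone 1 to 4, against 38.5%, 52.2%, 34.8% and 59.3% in saline 1 to 4. Within each dye it was higher in dexamethasone, and the same held for all spots, at 47.7% to 64.3% in dexamethasone and 39.1% to 59.7% in saline.

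**Figure D1:**
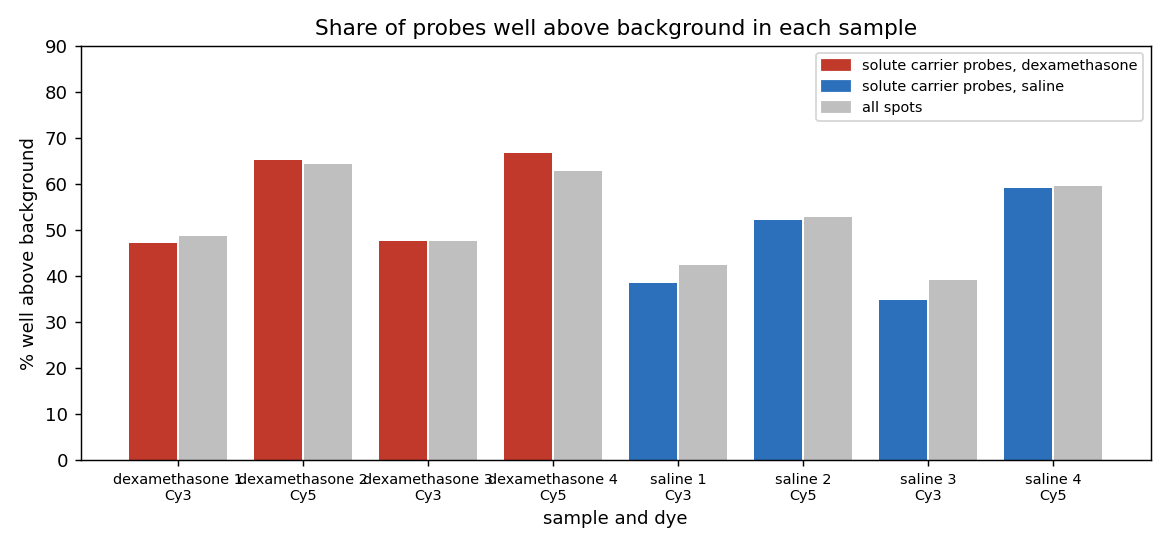
Percent of solute carrier probes (coloured, dexamethasone left and saline right) and of all spots (grey) that were well above background in each of the 8 samples, with the dye. Within Cy3 and within Cy5 both dexamethasone samples stood above both saline samples, for the solute carriers and for all spots alike.

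Enough values for a test were present for 111 of the 200 genes, through a probe that 4 or more of the 8 samples showed well above background and at least 3 values in each group. The other 89 comprised 42 with no probe above background in any sample, 44 above it in too few samples, and 3 (SLC7A5, SLC25A3 and SLC25A12) whose probes were bright but marked as uneven spots in saline. Among the 111, 33 were above background in more dexamethasone than saline samples, 3 in more saline samples and 75 in as many. The filter therefore let through 13 genes that were above background in all 4 dexamethasone and at most 2 saline samples, and all 13 had a difference above 0. Among the genes described below, SLC16A7, SLC31A1, SLC38A11, SLC4A10, SLC2A3 and ENSOCUT00000010899 are of these 13, and SLC12A1 was let through by saline alone. With scaling to the 75th percentile, 2 of the 13 lay above the median of all genes.

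None of the 111 solute carrier genes passed an adjusted p of 0.05 (limma, Benjamini-Hochberg over 11248 genes), where 7 of all genes, 0.0622%, did. At an unadjusted p under 0.05 there were 18 members, 9 higher and 9 lower in dexamethasone, or 16.2% against 13.7% of all genes (6.34% higher and 7.4% lower). Values of the groups did not overlap for 15 members, 13.5%, where 13.4% of all genes showed this, so the share was near that of the array as a whole. By direction it was 8 members higher, 7.21% against 5.92% of all genes, and 7 lower, 6.31% against 7.43%. Of the 8, 3 (SLC16A7, SLC31A1 and SLC38A11) are among the 13 genes above, and 1 of the 7 is SLC12A1, let through by saline alone. The part of the filter in this split was not tested. The median difference of the 111 genes was 0.04, against 0.02 over all genes. Above 0 were 65 members, 58.6% against 54.3% of all genes, and 46 were below. Differences ran from -1.44 to 0.76, and 83 of the 111 lay within 0.25 of 0. The median SE of a member was 0.15. On simulated data of this comparison the test called 29.85% of genes changed by 0.5 log2 units. It called 82.09% of genes changed by 1 and 95.45% of genes changed by 2. Differences of 0.5 and below were thus mostly not detectable with 4 arrays. The simulation changed 67, 67 and 66 genes by these sizes and held no slide effect. The adjusted p depends on how many genes change, so these rates need not hold for the data here.

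The spread between arrays of 1 group was as large as the treatment difference for most members. The 2 saline arrays differed by a median of 0.21 log2 units over the members and the 2 dexamethasone arrays by 0.12, against a median absolute difference between treatments of 0.15. For 77 of 111 members, 69.4%, the gap between the arrays of at least 1 group exceeded the treatment difference, as it did for 67.5% of all genes. Differences over all genes depended on the scaling, and genes did not all shift by the same amount. With each sample scaled to its own 75th percentile, and without the loess step, 26 members were called, 0 higher and 26 lower. Over all genes 45 were called higher and 2092 lower, against 2 higher and 5 lower in the test above. Under that scaling the median of all genes was -0.25 and that of the members -0.40. The 10 spike-in probes, which report RNA added at labelling, had a median difference of -0.41. In Cy3 all 10 were lower in dexamethasone (median -0.82), and in Cy5 7 were lower and 3 higher (median -0.11), and their part in these results was not tested.

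**Figure D2:**
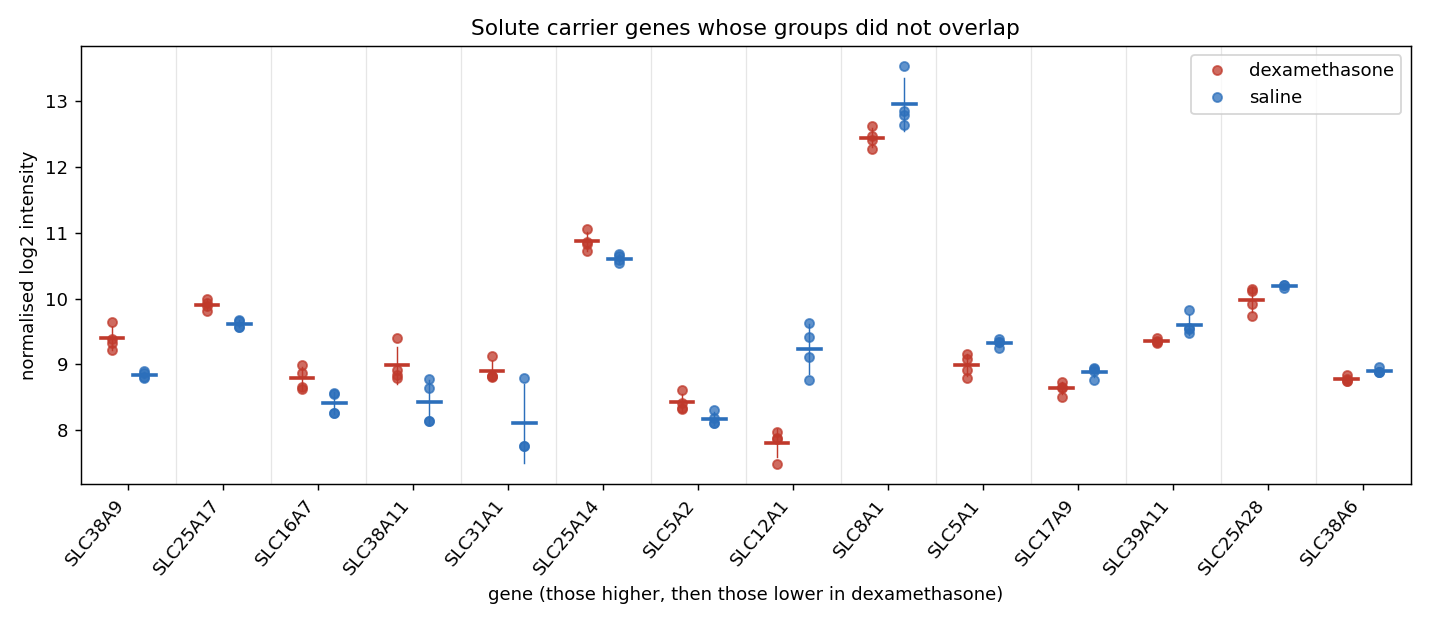
Normalised log2 intensity of 14 of the 15 solute carrier genes whose groups did not overlap, with 1 point per sample, dexamethasone left (red) and saline right (blue), and bars for the mean and the SD. SLC12A1 shows the widest gap, with a log2 difference of -1.44, and the groups of SLC38A6 and SLC25A28 lie close together.

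Carriers of glutamate and other transmitters showed no difference past the test. All 3 tested members of family 1, which take up glutamate and neutral amino acids, had a difference above 0, and 0 were called. SLC1A1, the neuronal glutamate carrier EAAC1, read 10.50, 10.94, 10.71 and 9.77 in dexamethasone and 10.82, 10.54, 10.18 and 10.14 in saline. The groups overlapped, with a difference of 0.06 (SE 0.29). SLC1A5, the neutral amino acid exchanger ASCT2, averaged 10.22 ± 0.26 in dexamethasone and 9.79 ± 0.38 in saline (SD, n = 4 each), a difference of 0.44 (SE 0.22, adjusted p = 0.399).

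Family 6, which takes up transmitters and amino acids with sodium and chloride, had 5 tested members, 1 above and 4 below 0, with a median of -0.15. SLC6A5, the glycine carrier GLYT2 of inhibitory nerve endings, averaged 13.59 ± 0.18 in dexamethasone and 13.76 ± 0.34 in saline (SD, n = 4 each). SLC6A12, a betaine and GABA carrier, had the smallest p of the family, with a difference of -0.15 (SE 0.09, adjusted p = 0.44), and its groups overlapped. The creatine carrier SLC6A8 differed by -0.04 (SE 0.11). The serotonin carrier SLC6A4 cleared background in only 3 of the 8 samples and so had no test.

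Of the vesicular carriers, SLC17A6, the vesicular glutamate carrier VGLUT2, was the least stable. It read 11.39, 9.21, 9.43 and 10.86 in dexamethasone and 9.13, 10.18, 10.04 and 10.16 in saline, so that 2 dexamethasone samples stood above every saline sample and the other 2 below all but 1. Its difference was 0.34 (SE 0.64, adjusted p = 0.812), and its 3 probes gave 0.05 to 0.52. SLC17A9, the carrier that loads ATP into vesicles, read 8.51, 8.72, 8.66 and 8.64 in dexamethasone and 8.92, 8.76, 8.94 and 8.89 in saline. The groups did not overlap, by a margin smaller than the spread within either, and the difference was -0.25 (SE 0.10, adjusted p = 0.359). SLC30A3, which loads zinc into synaptic vesicles, was likewise lower, at 8.65 ± 0.12 in dexamethasone and 8.91 ± 0.10 in saline (SD, n = 4 each), with groups that overlapped and an adjusted p of 0.359.

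The sodium- and proton-coupled amino acid carriers, SLC36A4 and the tested SLC38 genes, had 2 genes above and 5 below 0 of 7 tested, with a median of -0.20. Relative to the median of all genes, scaling to the 75th percentile turned this to 4 above and 3 below. SLC38A9, a lysosomal carrier that senses arginine for the growth regulator mTORC1, had the smallest p of its class and the second smallest adjusted p of these members. It read 9.22, 9.64, 9.33 and 9.39 in dexamethasone and 8.79, 8.86, 8.90 and 8.80 in saline, with every dexamethasone sample above every saline sample. The difference was 0.55 (SE 0.12, adjusted p = 0.20). It came from the probe A_04_P098277. The adjoining probe A_04_P098278 read 8.94, 9.38, 8.75 and 9.01 in dexamethasone and 9.10, 9.05, 8.85 and 8.77 in saline, a difference of 0.08 (SE 0.16) with overlapping groups.

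SLC38A11, a less studied member of the family, averaged 8.98 ± 0.28 in dexamethasone and 8.42 ± 0.34 in saline (SD, n = 4 each), without overlap, but it was above background in 4 dexamethasone samples and 1 saline sample. Its difference was 0.57 (SE 0.21, adjusted p = 0.346), against 0.0238 relative to the median of all genes with scaling to the 75th percentile. SLC38A2, the SNAT2 carrier that supplies glutamine and other neutral amino acids, was measured by 5 probes that each start 1 base after the last, with differences from -0.29 to -0.20. Dexamethasone 1 read 8.49 on the probe tested and the other dexamethasone samples 9.02 to 9.12, against 9.05 to 9.28 in saline. SLC38A5, the SNAT5 glutamine carrier, had a difference of -0.26 (SE 0.10, adjusted p = 0.348), which turned to 0.53 relative to the median of all genes with scaling to the 75th percentile. SLC38A6 differed by -0.12 (SE 0.08) with groups that did not overlap. The other 2 SLC38A6 probes gave a difference above 0.

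Families 3, 7 and 43, which exchange large neutral and cationic amino acids, had 3 of 6 tested genes above 0 and a median of -0.02. The heavy chain SLC3A2, which carries LAT1 to the cell surface, differed by -0.04 (SE 0.14), and the light chain SLC7A8 (LAT2) by 0.00 (SE 0.12). SLC3A1, the heavy chain of the cystine carrier, had the smallest p of this class, with a difference of 0.17 (SE 0.23, adjusted p = 0.729). The LAT1 light chain SLC7A5 of the blood-brain barrier was left out of the test because its spot was marked uneven in all 4 saline samples. With such spots kept, it averaged 11.52 in dexamethasone and 11.73 in saline, a difference of -0.21 (SE 0.21, adjusted p = 0.641).

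Among sugar carriers, SLC2A1, the glucose carrier GLUT1 of the blood-brain barrier, read 11.94, 11.84, 11.98 and 12.30 in dexamethasone and 11.85, 11.74, 11.34 and 12.92 in saline. The groups overlapped, saline 4 being the highest of all, and the difference was 0.05 (SE 0.33). Its 5 probes start 1 base apart and yet gave differences from -0.61 to 0.59. The neuronal glucose carrier SLC2A3 (GLUT3) differed by 0.08 (SE 0.19). SLC5A1, the sodium-coupled glucose carrier SGLT1, read 8.78, 9.15, 8.91 and 9.08 in dexamethasone and 9.39, 9.24, 9.33 and 9.33 in saline, lower in every dexamethasone sample (difference -0.34, SE 0.12, adjusted p = 0.331). The array holds 5 SLC5A1 probes, and no second one was fitted. The kidney carrier SLC5A2 (SGLT2) lay the other way, at 0.25 (SE 0.11, adjusted p = 0.364), and was above background in 2 of 4 samples of each group. Relative to the median of all genes, scaling to the 75th percentile turned it to -0.81.

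Lactate, pyruvate and thyroid hormone carriers of family 16 had 2 of 6 tested genes above 0. SLC16A7, the high-affinity lactate and pyruvate carrier MCT2 of neurons, read 8.62, 8.99, 8.66 and 8.86 in dexamethasone and 8.56, 8.55, 8.26 and 8.26 in saline. The probe was above background in 4 dexamethasone and 2 saline samples, and the lowest dexamethasone sample lay close to the highest saline sample without overlap. The difference was 0.38 (SE 0.13, adjusted p = 0.326), its second probe gave 0.21, and relative to the median of all genes it turned to -0.38 with scaling to the 75th percentile. SLC16A11 differed by 0.03 (SE 0.19). MCT1 (SLC16A1) was above background in 2 of 8 samples and was left without a test. SLC16A10, an aromatic amino acid and thyroid hormone carrier named after its values were seen, read 8.26, 7.94, 8.02 and 8.37 in dexamethasone and 8.33, 8.13, 9.95 and 9.51 in saline. Saline 3 and 4, from 1 array, stood above all other samples, and the difference was -0.83 (SE 0.40).

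SLCO1C1, the thyroxine carrier OATP1C1 of the blood-brain barrier, averaged 9.62 ± 0.36 in dexamethasone and 9.37 ± 0.30 in saline (SD, n = 4 each), with a difference of 0.25 (SE 0.22). SLC22A8, the organic anion carrier OAT3 of brain barriers and choroid plexus, read 12.11, 11.36, 12.34 and 12.15 in dexamethasone and 10.97, 11.36 and 11.63 in saline, with saline 2 left out as an uneven spot. Dexamethasone 2 was the lowest of its group and overlapped saline, and the difference was 0.72 (SE 0.29, adjusted p = 0.359). Its 3 fitted probes, which start 1 base apart, gave 0.17 to 0.72. Of 14 choroid plexus and leptomeningeal markers, 11 were tested, and their mean deviation from their gene means was 0.69, -0.66, -0.16 and 0.53 in dexamethasone and -0.64, 0.01, 0.08 and 0.21 in saline. It was lowest in dexamethasone 2 and in saline 1, the samples in which SLC22A8 was also lowest within its group, and its part in that result was not tested.

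The largest difference of any member was in SLC12A1, the sodium, potassium and chloride cotransporter NKCC2 that is known from the kidney's thick ascending limb. Its probe read 7.86, 7.97, 7.48 and 7.88 in dexamethasone and 9.63, 8.77, 9.41 and 9.12 in saline. Every dexamethasone sample was below every saline sample, and the probe was well above background in 0 of 4 dexamethasone and 4 of 4 saline samples. With each dexamethasone sample taken at the higher of its own reading and its dimmest well-measured probe, the mean was 2.53-fold lower in dexamethasone. This raised dexamethasone 3 only and makes no allowance for the SE, so 2.53-fold is no lower bound. The fitted difference was -1.44 (SE 0.23, adjusted p = 0.115), and -1.27 without dexamethasone 3.

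This rests on 1 of the 8 SLC12A1 probes. The other 7 were not well above background in any sample and lay between 7.59 and 8.24 in both groups. Among them are A_04_P097582 and A_04_P097584, printed above, which are each shifted by 20 bases from the bright probe and share 40 bases with it. The call also depended on the setting. SLC12A1 passed the adjusted threshold with the scanner software's processed signals (difference -4.27, adjusted p = 0.00074), without the array block (adjusted p = 0.0377), without saline 2 (adjusted p = 0.0372), with the deposited table, with scaling to the 75th percentile and without either saline array. The potassium and chloride carrier SLC12A7, the other tested member of the class, had a difference of 0.15.

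Bicarbonate carriers set pH in glia and choroid plexus. SLC4A4, the sodium bicarbonate cotransporter NBCe1, differed by -0.19 (SE 0.23). SLC4A10, which carries sodium and bicarbonate in neurons and choroid plexus, differed by 0.34 (SE 0.21, adjusted p = 0.458). The SLC4A10 probe was above background in 4 dexamethasone and 2 saline samples, and its difference was 0.13 without dexamethasone 1 and 0.017 relative to the median of all genes with scaling to the 75th percentile. Of the 7 tested exchangers of calcium, sodium and protons, 4 were above 0 and 3 below, with a median of 0.07 and 0 calls, and with scaling to the 75th percentile 3 were above and 4 below the median of all genes.

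SLC8A1, the sodium and calcium exchanger NCX1 of the plasma membrane, read 12.63, 12.41, 12.47 and 12.28 in dexamethasone and 12.86, 12.64, 13.54 and 12.79 in saline. The groups just failed to overlap, saline 3 standing highest, and the difference was -0.51 (SE 0.17, adjusted p = 0.326). A neighbouring probe gave -0.49, and a probe in another stretch of the transcript gave -0.11. Relative to the median of all genes the sign turned to 0.39 with scaling to the 75th percentile.

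Metal carriers were the largest tested class, with 15 genes, 11 above and 4 below 0, and a median of 0.06, which turned to 6 above and 9 below the median of all genes with scaling to the 75th percentile. SLC31A1, the copper importer CTR1, was above background in 4 dexamethasone and 2 saline samples, so its saline values are partly at background. It read 8.82, 8.81, 8.82 and 9.13 in dexamethasone and 8.79, 7.75 and 7.75 in saline, with saline 2 left out as an uneven spot. Every dexamethasone sample was above every saline sample, though saline 1 lay just under them. The difference was 0.76 (SE 0.29, adjusted p = 0.352), and the 4 fitted probes, which overlap almost entirely, gave 0.70 to 0.97. Relative to the median of all genes, the sign turned to -0.30 with scaling to the 75th percentile and to -0.31 with loess alone. The zinc carrier SLC39A11 had a difference of -0.24 (SE 0.11, adjusted p = 0.368), without overlap. The brightest probe of the class belonged to SLC39A6, which the array describes as a member 5-like transcript, with a difference of 0.08 (SE 0.25).

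Mitochondrial and peroxisomal carriers of family 25 had 12 of 14 tested genes above 0 and a median of 0.13, and 0 were called. Set against the median of all genes, 9 of the 14 were above it, and 10 with scaling to the 75th percentile. SLC25A17, a peroxisomal carrier of cofactors, read 9.94, 10.00, 9.80 and 9.88 in dexamethasone and 9.57, 9.57, 9.67 and 9.66 in saline. All dexamethasone samples were higher (difference 0.29, SE 0.09, adjusted p = 0.311). SLC25A14, a carrier related to the uncoupling proteins, averaged 10.87 ± 0.14 in dexamethasone and 10.61 ± 0.06 in saline (SD, n = 4 each), without overlap (adjusted p = 0.356). SLC25A28, the iron carrier mitoferrin 2, lay the other way at -0.22 (SE 0.15, adjusted p = 0.492), though at 0.20 above the median of all genes with scaling to the 75th percentile, and all 5 of its probes were below 0, from -0.36 to -0.08. SLC25A4, the adenine nucleotide carrier ANT1, averaged 15.97 ± 0.11 in dexamethasone (n = 4) and 15.83 ± 0.12 in saline (SD, n = 3). With uneven spots kept, the aspartate and glutamate carrier SLC25A12 differed by 0.25 (SE 0.12, adjusted p = 0.372) and the phosphate carrier SLC25A3 by 0.11 (SE 0.14).

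The nucleotide sugar carriers of family 35, which feed glycosylation in the Golgi and endoplasmic reticulum, had 9 of 11 tested genes above 0 and a median of 0.11, but 5 of 11 above the median of all genes with scaling to the 75th percentile. The smallest p belonged to the transcript ENSOCUT00000010899, which the array describes as an E3-like member, with a difference of 0.30 (SE 0.12, adjusted p = 0.356), which turned to -0.39 relative to the median of all genes under that scaling. SLC35B4, a carrier of UDP-xylose and UDP-N-acetylglucosamine, averaged 11.09 ± 0.19 in dexamethasone and 10.94 ± 0.38 in saline (SD, n = 4 each). In the small fatty acid and phosphate classes, SLC27A2 (FATP2) differed by 0.20 (SE 0.15) and the phosphate carrier SLC20A1 by 0.15 (SE 0.16). Of the 3 members that are not transporters, the scaffold NHERF1 differed by -0.02 (SE 0.24) and SLC7A6OS by 0.20 (SE 0.20). Medians of classes with 3 or more tested genes depended on the normalisation. Relative to the median of all genes they ran from -0.22 to 0.13 here, from -0.38 (monocarboxylates and thyroid hormone) to 0.44 (glutamate and neutral amino acids) with the processed signals, and from -0.67 (organic ions) to 0.56 (glutamate and neutral amino acids) with scaling to the 75th percentile.

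**Figure D3:**
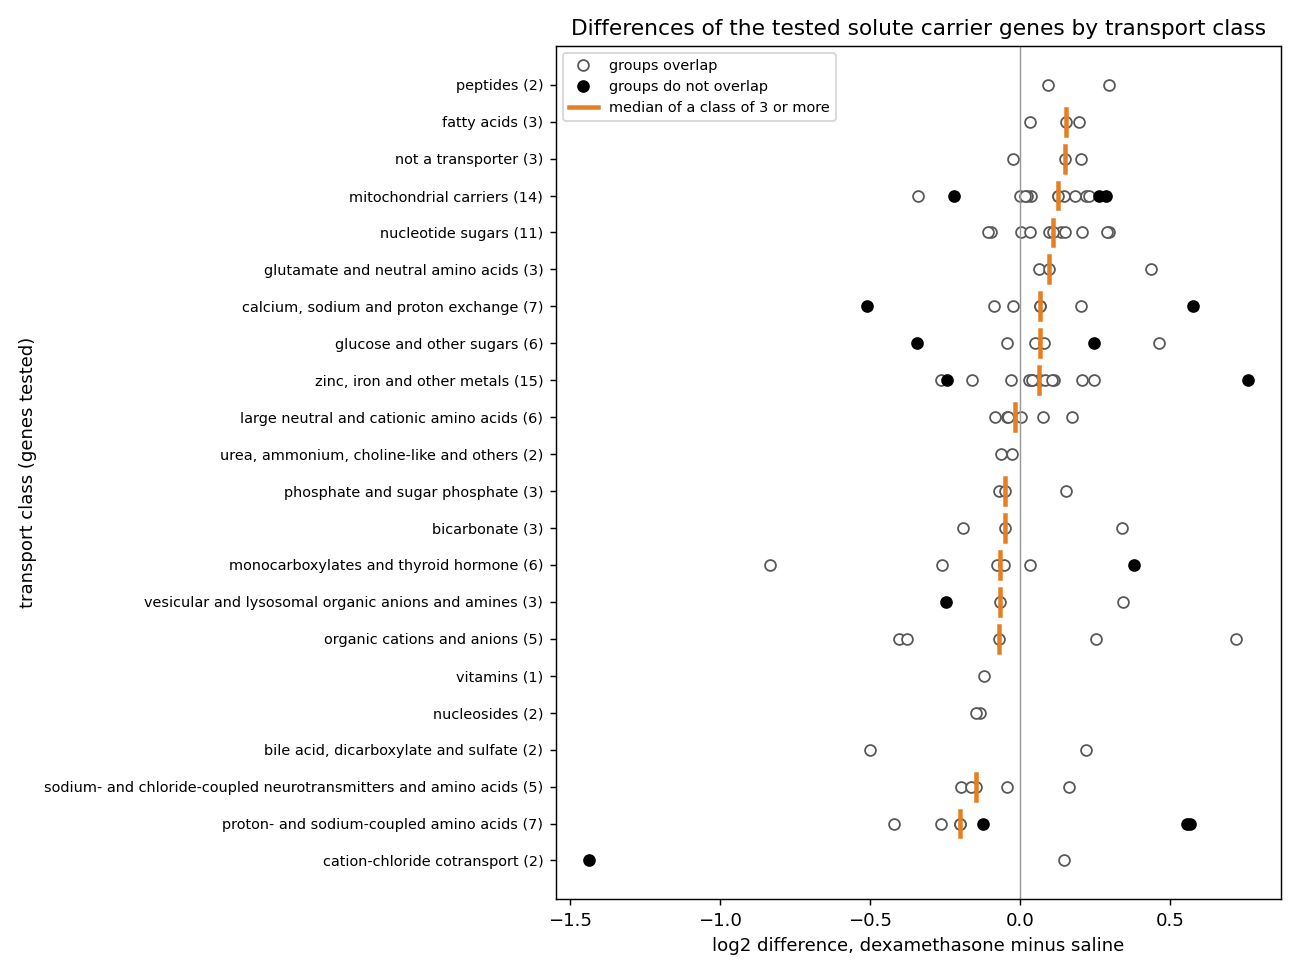
Log2 difference (dexamethasone minus saline) of each of the 111 tested solute carrier genes by transport class, with filled points where the groups did not overlap and an orange bar for the median of classes with 3 or more genes. Class medians lie between -0.20 and 0.15, and filled points stand on both sides of 0.

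Probes of the same gene disagreed often enough to bear on single-gene values. Of 44 tested genes with 2 or more fitted probes, 23 had all probes on the same side of 0 and 21 had probes on both sides. Among 107 pairs of probes that share 56 to 59 of their 60 bases, the median gap between their differences was 0.14 log2 units, and the largest was 1.19, in SLC2A1. Among 76 pairs that share no bases the median gap was 0.13. Signs matched in 67.3% of the first kind of pair and 67.1% of the second. The other 67 tested genes had 1 fitted probe and no such check.

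The genes that work with solute carriers gave 0 calls in either direction among 34 tested of 68 listed. They comprise the pumps that make the ion gradients, aquaporins, subunits that partner carriers, and the mitochondrial entry of pyruvate and calcium. NHERF1 and NHERF2, tested among the members above, are also among these 34. Differences were above 0 for 26 and below 0 for 8, where 54.3% of all genes were above 0. Relative to the median of all genes, 23 were above and 11 below. All 11 tested subunits and partners of the proton pump, which energises vesicles and lysosomes, had a difference above 0, with a median of 0.19, and 10 of the 11 lay above the median of all genes. The largest was ATP6V1E1, at 0.70 (SE 0.14, adjusted p = 0.209). The 3 tested genes of the sodium pump had a median of 0.00.

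Markers of the cell types in the tissue also gave 0 calls in 7 lists. The oligodendrocyte, blood cell and endothelial lists each had 2 tested genes above and 2 below 0, so their means can hide single markers. In these lists 2, 1 and 1 genes had groups without overlap, where 13.4% of all genes showed this. Tested were 5 of 8 neuronal, 7 of 8 astrocyte, 4 of 9 oligodendrocyte, 3 of 7 microglial, 4 of 10 endothelial and pericyte, and 4 of 8 blood cell genes, so neuronal and glial genes were measured in this tissue. The mean deviation of the neuronal genes lay between -0.36 and 0.27 in dexamethasone and between -0.16 and 0.13 in saline. That of the astrocyte genes lay between -0.29 and 0.16 in dexamethasone and between -0.09 and 0.06 in saline. Blood cell genes ran from -0.24 to 0.00 in dexamethasone and from -0.28 to 0.39 in saline, and microglial genes from -0.19 to 0.05 in dexamethasone and from -0.12 to 0.32 in saline. Oligodendrocyte genes ran from -0.27 to 0.10 in dexamethasone and from 0.03 to 0.12 in saline, and endothelial genes from -0.05 to 0.18 in dexamethasone and from -0.27 to 0.04 in saline. Array intensities have no true zero, so no marker could be read as absent, and the part of cell makeup in the carriers' values was not tested.

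Counts of members depended on single samples and arrays. Without dexamethasone 2 the groups did not overlap for 25 members, and without saline 2 for 28, or 22.5% and 25.2% against 19.8% and 23.5% of all genes. Without the array of saline 1 and 2, 24 members were called, 11 higher and 13 lower, among 2214 genes in all. Without the array of saline 3 and 4, 3 members were called, SLC12A1, SLC22A16 and SLC38A9, among 193 genes. In both of these fits the estimated correlation between samples of an array was negative, at -0.31 and -0.38. With either dexamethasone array left out, 0 members were called.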

How the data were processed

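RNA of 8 forebrain samples was measured on 4 arrays. The deposited scanner files hold spot intensity per dye, made by the authors with Agilent Feature Extraction (10.7.3.1 per the submitters' processing notes, 11.0.1.1 per the file headers). Both samples of an array share 1 file, and each sample was read from its own dye. The deposited series table holds a signal that matched the median minus background median intensity scaled by 1 factor in each column (100% of values agreed to 0.1%). Its column medians are 1, and its scale and direction are known.

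Intensities were corrected with normexp (offset 50), normalised by loess within arrays and Aquantile between arrays, and taken as log2 values per channel, from the deposited intensities. Uneven (outlier) spots were left out, and 0 spots were saturated. The uneven spots numbered 252, 509, 197 and 451 in dexamethasone 1 to 4. In saline 1 to 4 they numbered 1121, 932, 2486 and 3022, so every saline sample had more than every dexamethasone sample. A probe was kept if 4 or more samples showed it well above background, the kept probe with the highest mean was read for each gene, and 3 values per group were needed. Names came from a RefSeq table (mOryCun1.1), by gene ID for 264 member probes, accession for 167 and the array annotation for 10, and 13 had none. The test was limma 3.58.1 in R 4.3.3, with a dye term and array as a random block (correlation 0.238), with p-values of 11248 genes adjusted together (Benjamini-Hochberg). It was tested on simulated data. The labels call the samples biological replicates.

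Members, lists and tests were chosen with earlier results of these data known. Genes named are, among the tested members, up to 8 higher and 8 lower without overlap, the brightest and the smallest p of each class of 3 or more, and a list by name. SLC16A10, SLC12A7, SLC22A16, SLC36A4, SLC25A3, SLC25A12, SLC10A1, SLC10A2 and ATP6V1E1 were named after their values were seen. Some genes the rule names are not reported here. Alternatives covered the background correction, normalisation, dim filter, probe rule, blocks, deposited table, outlier spots, and samples or arrays left out. Outlier spots kept with probes chosen anew, single probes, and counts without SLC12A1 were chosen after seeing the data.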

Additional observations from a re-analysis of the deposited data

Results flagged for a closer look

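By Dixon's ratio of gap to range, a sample of 1 group stood far from the other 3 in 7 of the 77 groups of 4 values checked over the named genes, where chance would set apart about 1 in 20. These genes were named in part for groups without overlap or a small p, so the count is no test. In dexamethasone, SLC31A1 read 9.13 in sample 4 against 8.81 to 8.82 in the others, SLC35B4 read 11.38 in sample 3 against 10.98 at the lowest, and SLC38A2 read 8.49 in sample 1 against 9.02 to 9.12. The other 4 were all in saline 1. SLC17A6 read 9.13 there against 10.04 to 10.18 in the other saline samples, SLC4A4 read 9.53 against 9.97 to 10.01, SLC3A1 read 8.72 against 8.19 to 8.27, and SLC38A6 read 8.95 against 8.88 in each of the others.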

How the results depend on the processing

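Over 26 alternatives, 17 of 42 named genes kept their direction throughout. The single probes of a gene, 1 of 3 alternatives added later, are not in this count. SLC20A1, for example, is among the 17, though 2 of its 5 fitted probes were below 0. Called in at least 1 alternative were 13 named genes, of which 1, SLC5A2, only in the opposite direction (adjusted p = 0.0382 with scaling to the 75th percentile). The cause of a change was not tested unless fewer genes or samples entered the fit. Slide and treatment stay joined in all of them, dim probes limit 13 members, and 4 arrays limit the precision.

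Solute carrier genes called were 1 with the processed signals (14 of all genes), 26 with scaling to the 75th percentile (2137), 1 without the array block (22), 1 with the deposited table, 24 without saline 1 and 2 (2214), 3 without saline 3 and 4 (193), and 0 to 1 with single samples left out (0 to 12). Calls over all genes were 0 with loess alone, 3 with probes above background in all 8 samples, 2 without the dim filter, 12 with the mean of a gene's probes, 15 without the dye term, 0 with array means, 0 without dexamethasone 1 and 2, and 1 without dexamethasone 3 and 4. The median of the members was -0.40 with scaling to the 75th percentile, -0.75 with loess alone (all genes -0.60) and 0.11 with the deposited table (all genes 0.13). Members without overlap numbered 47 with scaling to the 75th percentile (42.3%, against 41.1% of all genes), 57 with loess alone (51.4% against 46.7%), 27 of 197 without the dim filter (13.7% against 12.6%), 9 with the mean of probes (8.11% against 12.4%), 7 of 109 with the deposited table (6.42% against 7.16%) and 45 with array means (40.5% against 48.7%). They numbered 28 without dexamethasone 1 and 2 (25.5% against 25.7%), 26 without dexamethasone 3 and 4 (23.6% against 28.4%), 49 of 104 without saline 1 and 2 (47.1% against 46.1%), 26 without saline 3 and 4 (24.5% against 24%), and 16 to 28 with single samples left out (14.4% to 25.2% against 14.8% to 23.5%). Of 220 single probes 25 had no overlap (11.4%, against 12.4% of all probes). Replicate numbers did not pair the samples (correlations of -0.11, -0.14, -0.01 and 0.09, with the own number best for 0 of 4). The replicate block gave 0 solute carrier genes called, a median of 0.03, 15 without overlap and 5 genes called in all.

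Signs that turned follow, as log2 differences. Relative to the median of all genes, with scaling to the 75th percentile and with loess alone, ENSOCUT00000010899 was at -0.39, NHERF1 0.42, SLC16A7 -0.38, SLC25A28 0.20, SLC27A2 -0.18, SLC2A3 -0.34, SLC38A5 0.53, SLC3A1 -0.74, SLC3A2 0.39, SLC4A4 0.0915, SLC5A2 -0.81, SLC6A5 0.72, SLC6A8 0.13 and SLC8A1 0.39 in both, and SLC31A1 at -0.30 and -0.31. The processed signals gave SLC16A11 -0.0392, SLC6A8 0.0854 and SLC7A8 -0.0268, quantile normalisation SLC16A11 -0.00524, and the deposited table SLC3A2 0.00638. The mean of probes gave NHERF1 0.0841, SLC2A1 -0.0137, SLC2A3 -0.0186, SLC38A6 0.0115 and SLC7A8 -0.13. Without dexamethasone 1 and 2, NHERF1 was at 0.12, SLC1A1 -0.18, SLC6A8 0.0227 and SLCO1C1 -0.0338, and without dexamethasone 3 and 4, SLC16A11 -0.0457, SLC2A1 -0.0739, SLC3A1 -0.00978 and SLC7A8 -0.0549. Without saline 1 and 2, SLC2A1 was at -0.12, SLC2A3 -0.18, SLC6A5 0.0277, SLC6A8 0.10 and SLC7A6OS -0.11, and without saline 3 and 4, NHERF1 0.30, SLC16A11 -0.22, SLC1A1 -0.19, SLC35B4 -0.17, SLC3A2 0.0336, SLC7A8 -0.0483 and SLCO1C1 -0.00236. With single samples left out, SLC17A6 ran from -0.30 to 0.97, SLC4A4 from -0.35 to 0.029, SLC7A8 from -0.0751 to 0.11, NHERF1 from -0.17 to 0.21, SLC2A1 from -0.12 to 0.35, SLC39A6 from -0.28 to 0.50, SLC6A8 from -0.11 to 0.0149, SLC35B4 from -0.00651 to 0.27, SLC16A11 from -0.0936 to 0.20, SLC1A1 from -0.16 to 0.31, SLC2A3 from -0.0655 to 0.23 and SLC3A2 from -0.12 to 0.0359.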
